A study of Mus musculus with 39 samples.

Results

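The genes described here are 39 genes of the G2 and M phases of the cell cycle, taken as a fixed list of gene symbols from a table of 24100 genes. They are read across cerebellar granule cells that are still dividing, leaving the cell cycle or mature. All 39 were found in the table, were measured in all 39 libraries and passed the filter on low counts in every comparison. By role they are 8 cyclins, Cdk1 and anaphase genes, 7 mitotic kinases and checkpoint genes, 7 kinetochore genes, 3 members of the chromosomal passenger complex, 10 kinesins, spindle and cytokinesis genes, and 4 genes of chromosome structure and other functions.

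A cell enters mitosis when Cdk1, bound to cyclin A or cyclin B, phosphorylates its targets, and it leaves mitosis when the anaphase-promoting complex (APC/C), a ubiquitin ligase, marks cyclin B and securin for destruction. In between, kinetochores assembled on centromeres capture spindle microtubules, the spindle checkpoint holds back the APC/C until every chromosome is attached, and the central spindle guides cytokinesis. In many cell types these genes are transcribed together from late S phase to mitosis and are kept off in non-dividing cells by the DREAM complex. Granule cell progenitors divide in the outer layer of the postnatal cerebellum before they exit the cycle, migrate inwards and mature.

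The series holds RNA sequencing of mouse cerebellum in 39 libraries. For 19 of them ribosomes carrying L10a fused to EGFP were pulled down together with the RNA bound to them (translating ribosome affinity purification, TRAP). Tg(Atoh1-Egfp-L10a) mice (Atoh1, also called Math1, is a transcription factor that defines this progenitor lineage) gave 4 libraries from progenitors isolated at postnatal day 7 (P7), and Tg(NeuroD1-Egfp-L10a) mice gave cerebellar lysate at P7, P12 and P21 with 5 libraries per age, beside 1 library of total cerebellar RNA (input) at each age. A first set of cultures, from mice at P6 to P7, gave 2 libraries each of freshly isolated cells (day 0 in vitro, DIV0), DIV2 with the solvent DMSO, DIV5 with DMSO, and DIV5 with UNC1999 at 100 nM, which inhibits both H3K27 methyltransferases, EZH2 and EZH1. All of these are labelled C57Bl/6J. A second set of DIV5 cultures came from P7 mice that all carried Atoh1-Cre, with unaltered Ezh1 (Ezh1 wt, 5 libraries) or floxed Ezh1 (Ezh1 cKO, 4 libraries). Their strain and the number of animals behind any library were not given in the sources used here, so p-values measure the spread between libraries, which may be technical.

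Library totals lay between 12.1 and 38.5 M counts. The progenitor marker Atoh1 stood at 609 to 1309 CPM (the gene's share of all counts of a library, in parts per M) in Math1 TRAP. Atoh1 is also the driver of the transgene in that line, and freshly isolated cells at DIV0 held 50.6 and 52.1 CPM of it. Whether the transgene adds to its level was not tested. The mature granule cell receptor subunit Gabra6 rose from 49.6 CPM at P7 to 1253 CPM at P21 in Neurod1 TRAP. In culture Gabra6 reached 16.9 CPM at DIV5 with DMSO. Summed markers of vascular and meningeal cells went from 976 and 978 CPM at DIV0 to 17290 and 19150 CPM at DIV5 with DMSO. Of the 12 genes in this sum 7 were higher and 4 lower than at DIV0 (median log2 fold change 1.57, from -6.13 to 6.06), and Col1a1, a fibroblast collagen, alone went from 111.5 to 8028 CPM. In the Ezh1 cultures the replicates numbered 1 and 2 stood apart from the others in both genotypes, with summed microglial markers of 535 to 721 CPM against 68.7 to 106 CPM. Ezh1 itself stood at 44.2 ± 4.17 CPM (SD, n = 5) in wt and 35.2 ± 1.16 CPM (SD, n = 4) in cKO cultures, without overlap, at a log2 fold change of -0.34 ± 0.09 (SE) that was not called (edgeR adjusted p = 1). The deleted exons were not measured separately, so this level does not check the deletion.

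Below, levels are CPM of the library total, and log2 fold changes with their SE come from edgeR's quasi-likelihood test on scaled counts, with Benjamini-Hochberg adjustment over all genes tested and a call at an adjusted p under 0.05. The summed level of the 39 genes gives the outline. It was 7742, 7671, 6170 and 6687 CPM in the Math1 TRAP libraries and 6828 and 6658 CPM at DIV0, the 2 preparations of isolated progenitors. Neurod1 TRAP held 2362 to 2968 CPM at P7, 355 to 566 CPM at P12 and 45.6 to 48.2 CPM at P21, so no age overlapped another. In culture the sum was 469 and 655 CPM at DIV2, 808 and 803 CPM at DIV5 with DMSO, 756 and 789 CPM with UNC1999, 976 to 1276 CPM in Ezh1 wt and 1076 to 1196 CPM in Ezh1 cKO. In bulk RNA, fewer dividing cells and less of these RNAs per cell cannot be told apart.

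**Figure D1:**
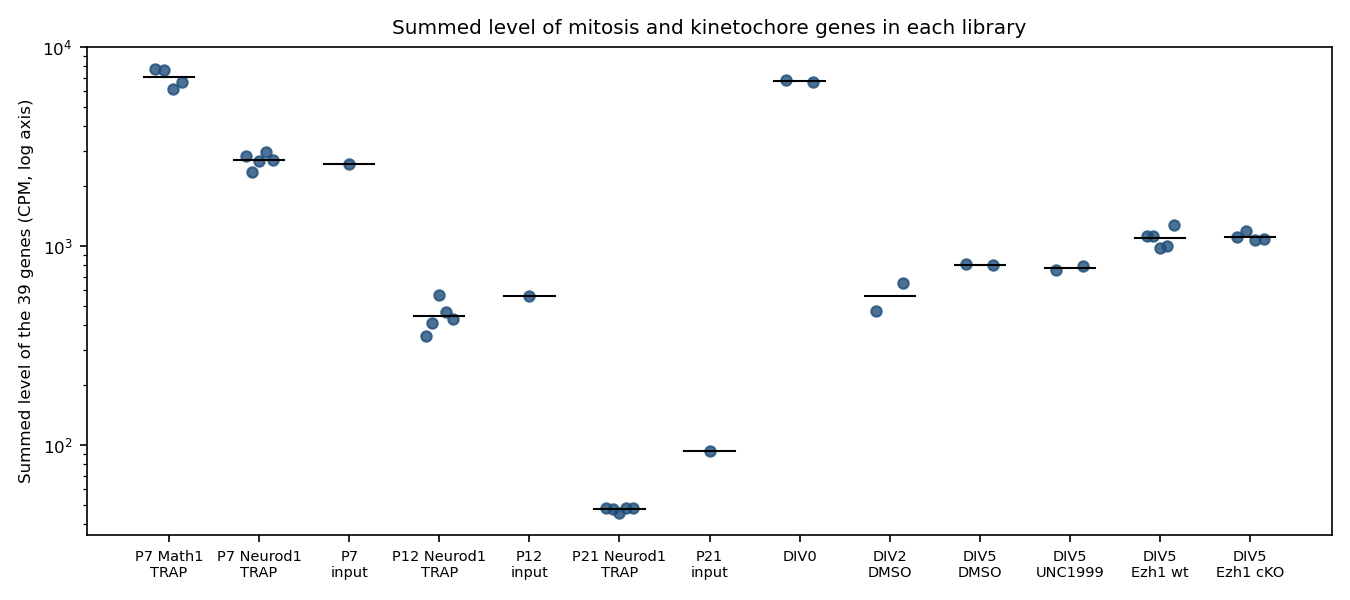
Summed level of the 39 genes in each of the 39 libraries (points) with the group mean (line), on a log axis in CPM. Neurod1 TRAP falls in 2 separate steps from 2362 to 2968 CPM at P7 to 45.6 to 48.2 CPM at P21, while the DIV5 cultures stay at 756 CPM or above.

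In the animal, all 39 genes fell from P7 to P12 in Neurod1 TRAP (5 libraries at each age), and all 39 fell again from P12 to P21. Among all 14759 genes tested 36.7% were called lower in the first step and 32.7% in the second, 68.2% and 65.1% in either direction. The median log2 fold change of the 39 was -2.61 from P7 to P12, between -3.46 (Top2a) and -1.59 (Spc24), and -3.91 from P12 to P21, between -7.21 (Esco2) and -0.65 (Anln). The median over all genes was -0.04 and 0.00. Both steps use the P12 libraries. In neither step did the libraries of 2 ages overlap for any of the 39, where 33.2% and 36.2% of all genes were lower without overlap.

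The cyclins and Cdk1 started the sequence from high levels. Ccnb1, cyclin B1, the partner of Cdk1 in mitosis, held 94.3, 89.5, 95.3, 109 and 93.3 CPM at P7, then 11.5, 13.2, 19.9, 16.7 and 14.9 CPM at P12, and 0.145, 0.215, 0.0571, 0.143 and 0.242 CPM at P21. Its log2 fold change was -2.63 ± 0.13 in the first step (adjusted p = 3.1e-13) and -6.38 ± 0.24 in the second (adjusted p = 1.8e-15). The second step of Ccnb1 was the larger one. Cdk1 went through 70.2 to 86.2 CPM at P7, 10.6 to 19.6 CPM at P12 and 0.114 to 0.338 CPM at P21, with log2 fold changes of -2.42 ± 0.14 and -5.79 ± 0.24. Ccna2, cyclin A2, behaved similarly (16.2% of its P7 mean at P12 and 0.497% at P21), whereas Ccnb2, cyclin B2, kept 1.54% at P21. Of the anaphase genes, Cdc20, an activator of the APC/C, kept 18.6% at P12 and 1.05% at P21. Ube2c, the ubiquitin-conjugating enzyme of the APC/C, kept 22.4% and 1.961%, and Espl1, the separase that cuts cohesin, 13.1% and 1.11%. Pttg1, the securin that restrains separase, kept 25.2% and 4.79%, the most of this group at both ages.

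Among kinases and checkpoint genes the depth of the fall differed. Plk1, a kinase of mitotic entry and spindle assembly, held 42.6 to 50.8 CPM at P7, 6.59 to 10.8 CPM at P12 and 0.515 to 0.832 CPM at P21, with log2 fold changes of -2.42 ± 0.12 and -3.62 ± 0.17. Bub1, a checkpoint kinase at kinetochores, fell by 2.82 and then by 4.57 on the log2 scale (SE 0.13 and 0.24) and ended at 0.0858 to 0.200 CPM. The checkpoint kinase Ttk kept 1.499% of its P7 mean at P21 and the centrosomal kinase Aurka 2.87%. Aurkb, the kinase of the passenger complex, kept 0.184% and the checkpoint protein Bub1b 0.179%. Mad2l1, the Mad2 protein that binds Cdc20 while chromosomes are unattached, was different. It held 63.7, 60.7, 62.7, 69.5 and 63.8 CPM at P7, 15.6, 17.7, 22.4, 18.7 and 17.1 CPM at P12 and still 8.46, 7.25, 7.67, 6.70 and 7.76 CPM at P21. Its log2 fold changes were -1.79 ± 0.10 (adjusted p = 7.9e-13) and -1.12 ± 0.10 (adjusted p = 2.9e-09).

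The 4 subunits of the Ndc80 complex, which binds microtubules at the kinetochore, separated at P21. Ndc80 held 26.9, 19.8, 23.3, 26.1 and 23.5 CPM at P7, 2.43 to 3.87 CPM at P12, and at P21 no count in 4 libraries and 0.123 CPM in replicate 2. Nuf2 and Spc25 kept 0.510% and 0.376% of their P7 means. Spc24 instead went from 32.5 to 40.3 CPM at P7 to 7.09 to 17.0 CPM at P12 and 5.74 to 6.84 CPM at P21, and its second step was small, at -0.76 ± 0.16 (adjusted p = 0.00041). At the centromere, Cenpa, the histone variant that marks it, kept 1.78% of its P7 mean at P21, the kinesin Cenpe 0.966% and the large coiled-coil protein Cenpf 0.878%.

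Of the passenger complex, Incenp, its scaffold, held 65.3, 48.0, 60.2, 61.3 and 61.0 CPM at P7, 17.1, 14.6, 17.3, 18.1 and 17.4 CPM at P12 and 8.21, 8.84, 7.99, 7.90 and 7.65 CPM at P21 (log2 fold changes -1.78 ± 0.09 and -0.91 ± 0.10). Its partners fell further. Birc5, survivin, held 52.4 to 70.0 CPM at P7, 8.23 to 16.1 CPM at P12 and 0.456 to 0.830 CPM at P21, and Cdca8, borealin, kept 1.33% of its P7 mean. Incenp thus stood at 13.7% of its P7 mean at P21, against 1.16% for Birc5 and 0.184% for Aurkb.

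Kinesins and spindle genes covered the whole range. Kif11, the kinesin that pushes spindle poles apart, held 81.5, 54.0, 76.9, 76.2 and 71.9 CPM at P7, 7.02 to 8.56 CPM at P12 and 0.706 to 1.10 CPM at P21, with nearly equal steps of -3.17 ± 0.13 and -3.09 ± 0.18. Kif18b, a kinesin that acts on microtubule plus ends, fell from 26.5 to 30.6 CPM to 3.49 to 5.70 CPM and then to 4 counts over the 5 P21 libraries. Tpx2, a spindle assembly factor that activates Aurora A, went from 105 to 148 CPM over 14.1 to 20.3 CPM to 0.491 to 1.31 CPM. Between these, Kif23 and Kif2c kept 0.269% and 0.220% of the P7 mean at P21, Nusap1 0.985%, Prc1, which bundles central spindle microtubules, 1.64%, Kif20a 2.20% and Hmmr 3.77%. Anln, anillin, a scaffold of the cytokinetic ring that also occurs in myelin, kept 15.6%.

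In the group of chromosome structure, Top2a, the topoisomerase that untangles chromosomes, held 306, 178, 247, 261 and 229 CPM at P7, 20.5, 19.8, 24.1, 23.4 and 21.4 CPM at P12 and 0.182, 0.307, 0.171, 0.229 and 0.188 CPM at P21. Mki67, the coat protein of mitotic chromosomes used as a marker of proliferation, went from 124 to 212 CPM over 14.0 to 19.4 CPM to 0.0806 to 0.430 CPM. Both had kept under 10% of the P7 level at P12, which no other of the 39 had. Esco2, an acetyltransferase of cohesin, ended with 4 counts over the 5 P21 libraries, and Cdca3, which triggers degradation of Wee1, kept 0.626%.

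**Figure D2:**
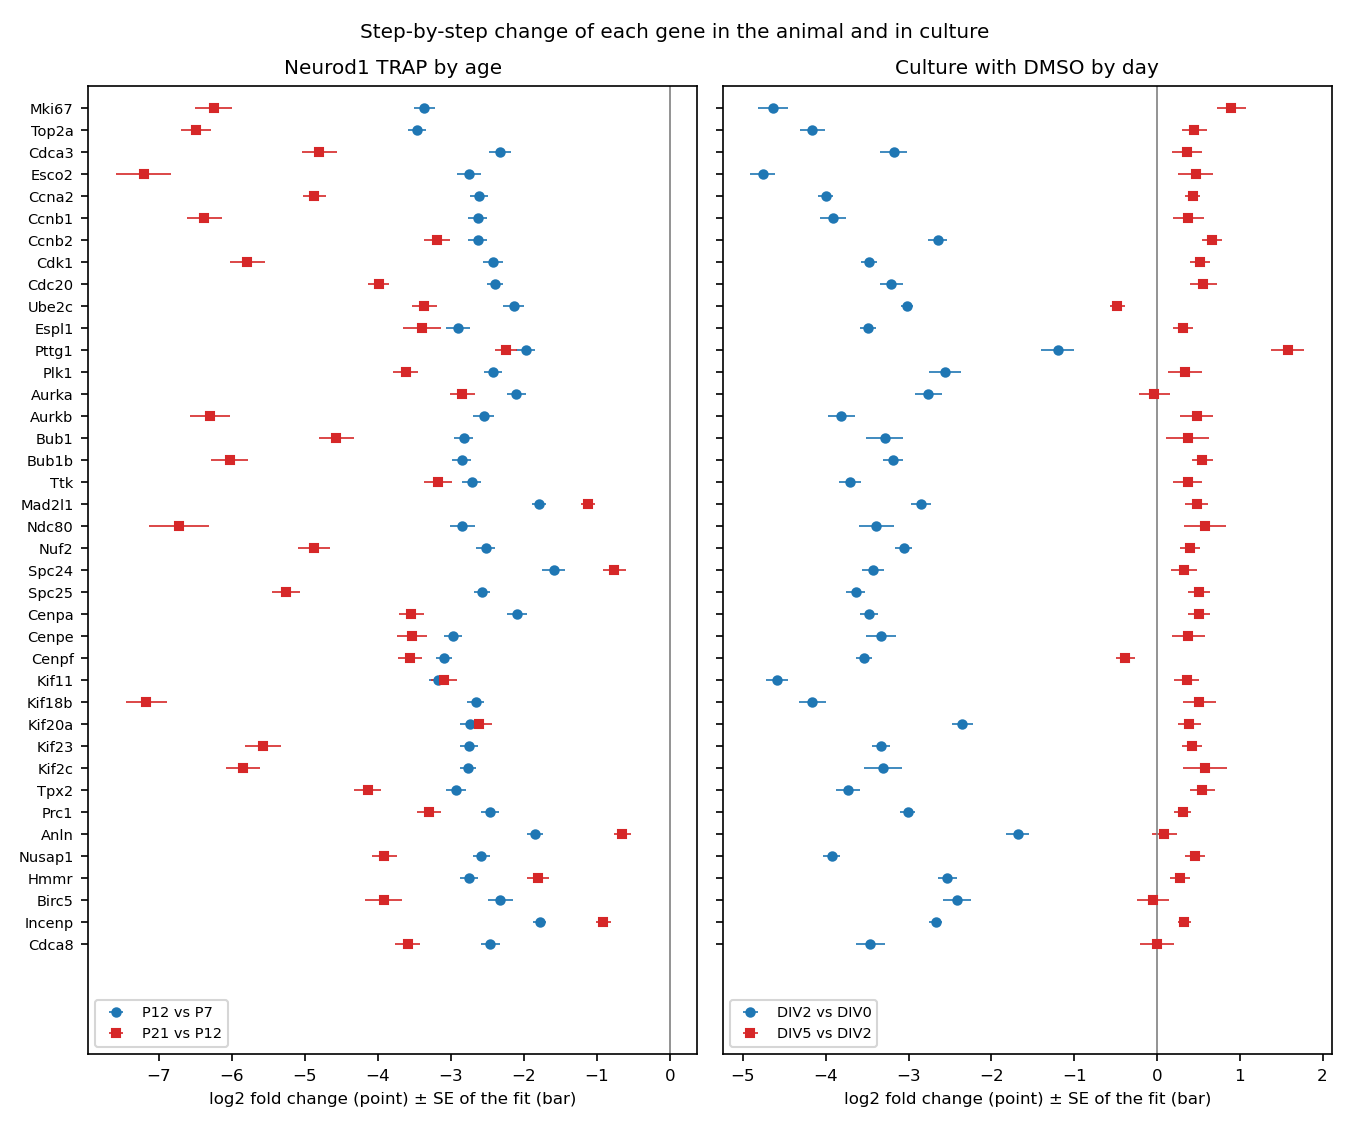
Log2 fold change (points) with the SE of the fit (bars) for each of the 39 genes, ordered by role, for consecutive ages in Neurod1 TRAP (left) and consecutive days of culture with DMSO (right). In the animal both steps lie below 0 for all 39 genes, whereas in culture the first step lies below 0 for all 39 and the second above 0 for 34.

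Over the whole interval from P7 to P21 all 39 genes were lower, with 42.5% of all genes called lower and 81.5% called in either direction. The median log2 fold change was -6.49. At P21 20 of the 39 stood under 1% of their P7 mean and 26 under 1 CPM. Only Spc24 (17.4%), Anln (15.6%), Incenp (13.7%) and Mad2l1 (11.8%) stayed at 5% or more. For Esco2, Kif18b and Ndc80, with 4 counts each over the P21 libraries, the size of the fitted change depends on the value added to low counts. Library by library, P12 replicate 3 was the highest of its group for 34 of the 39 genes and replicate 1 the lowest for 30, and at P7 replicate 2 was the lowest for 30.

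Most genes of the same machinery outside the 39 were lower as well. From P7 to P12, 32 of 33 other kinetochore and centromere genes were lower and 1 higher (median log2 fold change -1.94), as were 30 of 31 other spindle, kinesin and cytokinesis genes with none higher (-2.37), and all 25 genes of an S phase list (-2). Of 20 condensin and cohesin genes 17 were lower and 1 higher (-0.83), of 18 genes of mitotic entry and its transcription 16 were lower and 2 higher (-1.55), and of 17 APC/C subunits and regulators 12 were lower and 1 higher (-0.42). Examples are the shugoshin Sgo2a (-2.78 ± 0.09) and Kntc1 of the checkpoint (-3.03 ± 0.11), Ect2 of cytokinesis (-2.80 ± 0.11) and the kinesin Kif15 (-3.08 ± 0.12), the condensin subunits Smc4 (-2.11 ± 0.07) and Smc2 (-2.81 ± 0.12), E2f8 (-2.68 ± 0.12) and Gtse1 (-2.57 ± 0.12), the APC/C inhibitor Fbxo5 (-1.90 ± 0.10) and subunit Cdc23 (-0.64 ± 0.05), and the DNA ligase Lig1 (-2.15 ± 0.09) and Mcm10 (-2.82 ± 0.13). The genes that rose were Zwint (0.54 ± 0.06), Lin37 (0.48 ± 0.07) and Lin52 (0.49 ± 0.08) of the DREAM complex, Ncaph2 (0.14 ± 0.06) and Anapc11 (0.38 ± 0.07). Lin9 and Lin54 of the same complex were among the 16 lower genes of their list, so its subunits did not move together. From P12 to P21 these medians were -1.43, -2.91, -1.43, -0.40, -0.54 and -0.20, each closer to 0 than the -3.91 of the 39 genes.

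The inputs show what total cerebellum held at the same ages. At P7 the input lay within the range of the 5 Neurod1 TRAP libraries for 18 of the 39 genes, below it for 15 and above it for 6. At P12 it lay above for 20, and at P21 above for 32, below for 3 and within for 4. The summed level in input was 2574, 558 and 93.0 CPM. These counts and sums rest on library totals. With the scaling of the tests (TMM), the input sums at P7, P12 and P21 were 1908, 426.8 and 74.81 CPM. Mean sums in Neurod1 TRAP, scaled in a separate fit, were 2614, 436.2 and 51.67 CPM. At P12 the input sum was then not above the TRAP mean. The counts by gene were not redone on that scaling. Anln held 24.2, 15.6 and 20.3 CPM in input at P7, P12 and P21, while in TRAP it ended at 2.22 to 3.28 CPM. Summed oligodendrocyte markers were 1081, 1849 and 1909 CPM in these inputs and 241 to 457 CPM in all Neurod1 TRAP libraries. Their part in the Anln level was not tested. Spc24, Mad2l1 and Pttg1 were the genes with more in TRAP than in input at P21 (input 2.85, 5.52 and 1.84 CPM).

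With age in the fit, TRAP against input called 8 of the 39 genes higher and 5 lower, among 77.8% of 15479 genes called in either direction (36.6% higher and 41.2% lower). The higher genes were Spc24 (log2 fold change 1.04 ± 0.19), Pttg1 (0.88 ± 0.11), Mad2l1 (0.76 ± 0.09), Ube2c (0.71 ± 0.17), Cenpa (0.51 ± 0.15), Aurka (0.45 ± 0.16), Cdca8 (0.44 ± 0.16) and Cdk1 (0.43 ± 0.18). The lower ones were Anln (-1.34 ± 0.23), Cenpf (-1.26 ± 0.14), Cenpe (-0.82 ± 0.15), Bub1 (-0.69 ± 0.24) and Mki67 (-0.68 ± 0.24). The fit does not let the difference vary with age. By library totals, Cdk1 and Cdca8 were below all TRAP libraries in the P7 input. In the P21 input they were above, at 0.541 CPM against at most 0.338 CPM and 1.77 CPM against at most 1.20 CPM. Ube2c, Cenpa and Aurka went from below at P7 to within the range at P21, and Spc24, Pttg1 and Mad2l1 were below at both ages. Not called were, among others, Ccnb1 at -0.11 ± 0.19, Plk1 at -0.07 ± 0.19, Kif11 at -0.18 ± 0.13, Top2a at 0.12 ± 0.19, Tpx2 at 0.24 ± 0.18, Ndc80 at 0.25 ± 0.26, Birc5 at 0.03 ± 0.24 and Incenp at 0.18 ± 0.09. Markers of glial and vascular cells were lower in TRAP throughout (11 of 11 astrocyte, 10 of 10 oligodendrocyte, 10 of 10 microglia and 12 of 12 vascular genes). This split depends on scaling: with library size alone, which moves the median of all genes by -0.40, 3 of the 39 were higher and 16 lower, and among all called genes 25.6% rather than 47.1% were higher. Without the P7 input 4 were higher and 9 lower, without the P12 input 3 were lower, and without the P21 input 16 were higher.

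Among the 39, genes with long transcripts tended to be lower in TRAP. Spearman's rho between the log2 fold change and the length of the longest coding transcript in GENCODE M21 was -0.64 over the 39 genes and -0.39 over the 14309 tested genes with a length. Genes measured in the same libraries are not independent, and this is a description. The ratio of Math1 TRAP to DIV0, the first ribosome-bound RNA and the second cellular RNA of isolated progenitors, had a rho of -0.68 over the 39 and -0.38 over all. Mki67, one of the longest, held 531 to 636 CPM in Math1 TRAP and 1241 and 1281 CPM at DIV0. The cause was not tested.

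**Figure D3:**
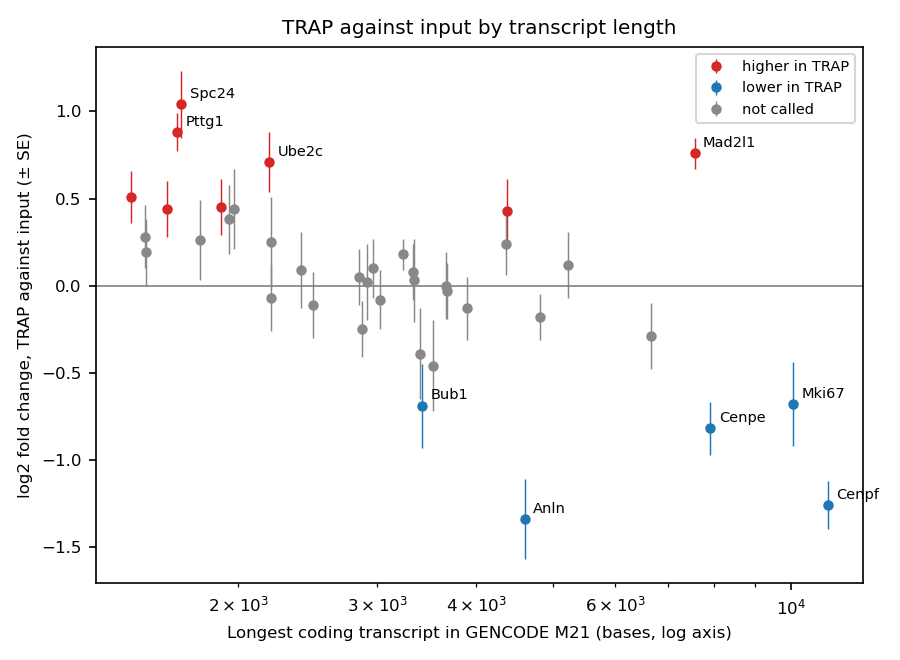
Log2 fold change of TRAP against input (points, with the SE of the fit as bars) for each of the 39 genes against the longest coding transcript, on a log axis in bases. Red genes were called higher and blue genes lower. The long transcripts of Mki67, Cenpe and Cenpf lie below 0, and Mad2l1, whose longest transcript is also long, lies above.

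At P7 the Neurod1 TRAP libraries were compared with Math1 TRAP from isolated progenitors, so the driver of the transgene and the starting material change together. Of the 39 genes 38 were lower in Neurod1 TRAP and 1 was higher, with 35.8% of all genes called lower, 36.5% higher and 72.4% in either direction. The median was -1.48, against 0.01 for all genes. The levels of the 38 in Neurod1 TRAP were 26.8% (Cenpe) to 60.2% (Spc25) of those in Math1 TRAP. Top2a held 1001, 926, 819 and 848 CPM in Math1 TRAP against 178 to 306 CPM (log2 fold change -1.88 ± 0.12), Cenpe 109 to 129 CPM against 24.8 to 38.0 CPM (-1.90 ± 0.11), and Cenpf 179 to 218 CPM against 44.7 to 62.2 CPM (-1.86 ± 0.10). The smallest declines were those of Spc25 (-0.74 ± 0.11) and Cenpa (-0.75 ± 0.14). Mki67, Ccnb1, Cdk1, Plk1, Bub1, Ndc80, Birc5, Tpx2 and Incenp lay between Kif11 at -1.79 ± 0.12 and Mad2l1 at -0.91 ± 0.10.

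Marker lists of cell types differed between the same libraries. All 8 granule progenitor markers were lower in Neurod1 TRAP (median -1.38, sum 889.6 to 1051 CPM against 2686 to 3677 CPM), and 7 of 8 granule neuron markers were higher and 1 lower (2.10). The progenitor sum includes Atoh1, the driver of the Math1 transgene, at 20.1 to 26.1 CPM in Neurod1 TRAP against 609 to 1309 CPM in Math1 TRAP. All 6 Purkinje cell markers were higher (3.58, sum 430.4 to 529 CPM against 53.0 to 80.7 CPM, with Ppp1r17 under 1 CPM in every Math1 library), as were 5 of 6 markers of GABAergic interneurons (2.26, 71.5 to 101 CPM against 11.3 to 20.5 CPM, with Slc6a5 under 1 CPM in every library of both). Of 12 vascular and meningeal markers 10 were lower and 1 higher (-1, 26.2 to 47.8 CPM against 58.0 to 113 CPM), and of 11 astrocyte markers 8 were lower and 2 higher (-0.93, 429 to 653 CPM against 505 to 797 CPM). Of 10 oligodendrocyte markers 4 were higher and 2 lower, and of the 9 microglial markers tested 1 was higher and 1 lower. The part of these cell types in the differences of the 39 genes was not tested.

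Pttg1 went the other way. It held 13.5, 11.9, 7.20 and 9.68 CPM in the 4 Math1 TRAP libraries and 40.4, 41.6, 39.2, 50.1 and 41.0 CPM in the 5 Neurod1 TRAP libraries at P7, a log2 fold change of 1.98 ± 0.15 (adjusted p = 9.1e-11). Every Neurod1 library was above every Math1 library. The P7 input, at 27.2 CPM, was also above all Math1 TRAP libraries. Freshly isolated progenitors held as little, 5.58 and 8.82 CPM at DIV0. Pttg1 was therefore lower in both preparations of isolated progenitors than in Neurod1 TRAP at P7, although progenitors were the richer source of the other 38 genes in the TRAP comparison.

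The proximal promoters of these genes share letters that the choice of the list did not use. RefSeq entries on GRCm38.p6, from 250 bases before to 50 bases after a gene's start, were at hand for 32 of the 39 genes. The motifs searched, on both strands, were CCAAT, the box bound by NF-Y, and the cell cycle homology region (CHR), the element through which DREAM binds G2 and M phase genes, in 3 forms. The canonical form of this element in cell cycle promoters is TTTGAA. It appears as TTCAAA where a promoter carries the element in the reverse direction. A variant with the same reading on both strands is TTTAAA, and a further symmetrical variant that was searched for in the same way is TTCGAA. The box CCAAT was present in 24 of 32 promoters (75.0%) against 37.9% of 27025 genes, and a CHR form in 28 of 32 (87.5%) against 29.0%. TTTGAA alone was present in 24 (75.0%) against 18.1%. A CCAAT followed 25 to 45 bases downstream by a CHR was present in 16 of the 32 against 1.42% of all genes. That spacing was chosen after the promoters had been read. The windows of 4 genes from the cyclin, anaphase and chromosome groups show the arrangement, each 120 bases long, 5′ to 3′ on the gene's strand, with matches to either motif on either strand in capitals (the NF-Y box reads ATTGG in reverse). They end 1 base before the gene's start in the RefSeq entry, except for Mki67, where the window runs from 200 to 81 bases before that start. The RefSeq span of the Top2a gene begins at 99024199, within the last bases of its window.
Cdk1, chr10:69352913-69353032, minus strand: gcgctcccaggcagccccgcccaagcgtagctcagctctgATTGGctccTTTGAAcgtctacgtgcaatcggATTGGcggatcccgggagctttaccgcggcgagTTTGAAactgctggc
Cdc20, chr4:118437344-118437463, minus strand: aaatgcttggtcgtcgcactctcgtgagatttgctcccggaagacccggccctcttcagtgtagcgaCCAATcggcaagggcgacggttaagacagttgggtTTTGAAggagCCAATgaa
Top2a, chr11:99024190-99024309, minus strand: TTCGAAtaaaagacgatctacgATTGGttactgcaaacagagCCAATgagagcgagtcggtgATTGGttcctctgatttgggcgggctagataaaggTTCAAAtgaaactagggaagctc
Mki67, chr7:135716460-135716579, minus strand: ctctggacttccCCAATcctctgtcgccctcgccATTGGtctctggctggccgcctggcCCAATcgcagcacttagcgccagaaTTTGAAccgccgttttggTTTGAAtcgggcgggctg

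Neither motif was found in the promoter entries of Mad2l1, Nuf2, Nusap1 and Pttg1. The Pttg1 entry (chr11:43425932-43426231, minus strand) lies inside the RefSeq span of the gene, 43420244 to 43427463. The promoter at the outer start of Pttg1 was therefore not searched. Of the P7 mean in Neurod1 TRAP, Mad2l1 kept 28.6% at P12 and 11.8% at P21 and Pttg1 25.2% and 4.79%, while Nuf2 and Nusap1 fell to 0.510% and 0.985% at P21. Anln had a CHR but no CCAAT in its entry. Incenp and Spc24 had no entry. A match is a stretch of letters and not a measured binding site, and other starts of these genes were not searched.

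In the first set of cultures all 39 genes fell from DIV0 to DIV2 (2 libraries each), with 35.0% of 15978 genes called lower and 71.3% called in either direction. The median log2 fold change was -3.33 against 0.02 for all genes, and no library at DIV2 reached DIV0 for any of the 39. At DIV2 21 of them stood under 10% of the DIV0 mean and 37 under 20%. The largest declines were those of Esco2 (81.5 and 76.7 CPM to 2.21 and 3.74 CPM, -4.76 ± 0.15), Mki67 (1281 and 1241 CPM to 40.8 and 59.5 CPM, -4.64 ± 0.18) and Kif11 (376 and 355 CPM to 12.4 and 17.8 CPM, -4.59 ± 0.13). The smallest were those of Pttg1 (-1.20 ± 0.20), Anln (92.1 and 88.0 CPM to 22.9 and 32.9 CPM, -1.68 ± 0.14) and Kif20a, a kinesin of cytokinesis (95 and 88.2 CPM to 14.7 and 21 CPM, -2.35 ± 0.13). Top2a, Ccnb1, Cdk1, Plk1, Bub1, Ndc80, Birc5, Tpx2, Incenp and Mad2l1 lay between them, from -4.16 ± 0.15 for Top2a to -2.41 ± 0.17 for Birc5. The 2 DIV2 libraries were not alike: replicate 2 was above replicate 1 for all 39 genes, and its summed vascular and meningeal markers were 6833 CPM against 4203 CPM. Against DIV0, 4 of these 12 markers were higher at DIV2 and 7 lower (median -0.75, from -6.90 to 4.65).

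Across the 39 genes the log2 fold changes from P7 to P12 and from DIV0 to DIV2, which share no library, had a Pearson's r of 0.58 and a Spearman's rho of 0.52, and those from P7 to P21 and from DIV0 to DIV5 had 0.52 and 0.54. Over the 14428 genes tested in both the values were 0.48 and 0.49, and 0.41 and 0.41. Spc24, the least changed from P7 to P12, departed from this and fell by 3.43 on the log2 scale from DIV0 to DIV2 (SE 0.13).

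From DIV2 to DIV5 with DMSO part of the fall was undone for many of the 39. Called higher were 20 and lower 2, among 31.1% of all genes called higher, 35.7% lower and 66.7% in either direction, and the log2 fold change was above 0 for 34. The list was described with this rise already known, so these counts are a description. The median was 0.40 against -0.05 for all genes. Pttg1 rose most, from 2.98 and 3.36 CPM to 10.4 and 10.4 CPM (1.58 ± 0.20, adjusted p = 6.4e-06), followed by Mki67, from 40.8 and 59.5 CPM to 98.1 and 106 CPM (0.90 ± 0.17, adjusted p = 0.0048), and Ccnb2, from 7.96 and 10.4 CPM to 16.3 and 15.5 CPM (0.67 ± 0.12, adjusted p = 0.00021). For these 3 genes both DIV5 libraries were above both DIV2 libraries, which held for 33 of the 39 and for 45.7% of all genes.

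By role, 6 of 8 cyclin, Cdk1 and anaphase genes were called higher and Ube2c lower, among 31.1% of all genes higher and 35.7% lower. Called higher were 2 of 7 kinases and checkpoint genes (Bub1b and Mad2l1), 3 of 7 kinetochore genes, with Cenpf lower, and 1 of 3 passenger genes (Incenp). So were 6 of 10 kinesins, spindle and cytokinesis genes and 2 of 4 chromosome genes. In this order, the log2 fold change was above 0 for 7 of 8, 6 of 7, 6 of 7, 1 of 3, 10 of 10 and 4 of 4. The median was -0.00 in the passenger genes and 0.37 to 0.47 in the other roles. With so few genes a role, the counts called do not show that the roles differed. Ube2c went from 15.1 and 16.7 CPM to 12 and 12.9 CPM (-0.48 ± 0.09, adjusted p = 0.00025) and Cenpf from 26.9 and 35.3 CPM to 26.4 and 25.9 CPM (-0.38 ± 0.11, adjusted p = 0.012). Of the other genes Cdk1 (0.52 ± 0.12), Top2a (0.45 ± 0.15), Tpx2 (0.55 ± 0.15), Incenp (0.33 ± 0.08) and Mad2l1 (0.48 ± 0.14) were called. Not called were Ccnb1 (11.6 and 18.3 CPM to 21.4 and 20.5 CPM, 0.38 ± 0.19), Plk1 (0.34 ± 0.21), Bub1 (0.37 ± 0.26), Ndc80 (0.58 ± 0.25), Kif11 (0.36 ± 0.15) and Birc5 (9.17 and 13.5 CPM to 12 and 11.8 CPM, -0.05 ± 0.19). The number called rests on single libraries: without DIV2 replicate 1 it was 13 higher, without DIV2 replicate 2, the library with more of all 39 genes, 36 higher and 1 lower, without DIV5 replicate 1 10 higher and without DIV5 replicate 2 1 lower. With library size as the only scaling, which moves the median of all genes by 0.14, 31 were higher and 1 lower, and 57.4% rather than 46.6% of all called genes were higher.

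The level reached was far from that of fresh progenitors. At DIV5 the 39 genes stood at a median of 14.0% of their DIV0 means, from 5.53% (Esco2) upwards, and 38 were called lower than at DIV0 (38.2% of all genes lower, 40.2% higher and 78.3% in either direction), led by Esco2 (-4.29 ± 0.14), Kif11 (-4.24 ± 0.13) and Cenpf (-3.92 ± 0.10). Mki67, Top2a, Ccnb1, Cdk1, Plk1, Bub1, Ndc80, Birc5, Tpx2, Incenp and Mad2l1 lay between -3.74 ± 0.17 (Mki67) and -2.23 ± 0.18 (Plk1). Pttg1 was the exception, with both DIV5 libraries above both DIV0 libraries (log2 fold change 0.39 ± 0.17, adjusted p = 0.051). The least reduced of the others were Anln (35.9% of DIV0) and Kif20a (27.7%). The plot of levels relative to DIV0 shows a deep fall and a small return for most genes, from a median of 9.94% of DIV0 at DIV2 to 14.0% at DIV5.

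**Figure D4:**
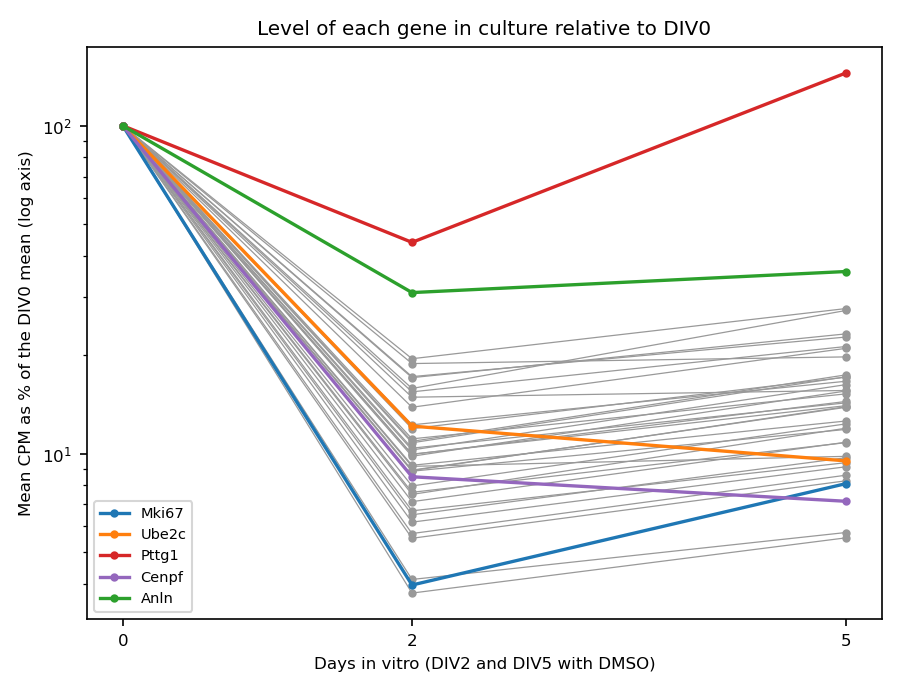
Mean level of each of the 39 genes at DIV0, DIV2 and DIV5 with DMSO (2 libraries each) as a percentage of its DIV0 mean, on a log axis against days in vitro. Most lines drop below 20% at DIV2 and turn up slightly at DIV5, Ube2c and Cenpf continue down, and Pttg1 ends above its DIV0 level.

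Markers of other cell types, some of which divide in culture, rose over the same step. From DIV2 to DIV5 all 10 microglia and macrophage markers were higher (median log2 fold change 2.79), and their sum went from 116 and 119 CPM to 865 and 921 CPM. Of 12 vascular and meningeal markers 9 were higher and none lower (median 1.88), with Col1a1 at 2735 CPM at DIV2 and 8028 CPM at DIV5. All 11 astrocyte and Bergmann glia markers were higher (median 0.93), with sums of 1316 and 1421 CPM at DIV2 and 3205 and 3243 CPM at DIV5. Of the 8 granule progenitor markers 4 were higher and 4 lower (median 0.49, from -3.37 to 1.85), with sums of 469.6 and 469.5 CPM at DIV2 and 495.5 and 479.8 CPM at DIV5. The lowest value of this list was that of Atoh1, which went from 51.4 CPM at DIV0 over 0.785 CPM at DIV2 to 0.0769 CPM at DIV5. Their part in the rise of the 39 genes was not tested. Of the S phase list 8 of 25 genes were higher and 1 lower (median 0.12), and of other kinetochore and centromere genes 6 of 33 were higher and 6 lower (median 0.18). Of other spindle, kinesin and cytokinesis genes 12 of 31 were higher and 3 lower (0.33), of the mitotic entry genes 6 of 18 were higher and 7 lower (-0.11), whereas of condensin and cohesin genes 14 of 20 and of APC/C genes 11 of 17 were lower. The replicative helicase subunits Mcm6 (0.97 ± 0.08) and Mcm7 (-0.45 ± 0.07) moved in opposite directions, and Zwint (-0.59 ± 0.05), Smc1a of cohesin (-0.70 ± 0.06), the microtubule polymerase Ckap5 (-0.61 ± 0.05) and the spindle pole protein Numa1 (-0.51 ± 0.05) fell.

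**Figure D5:**
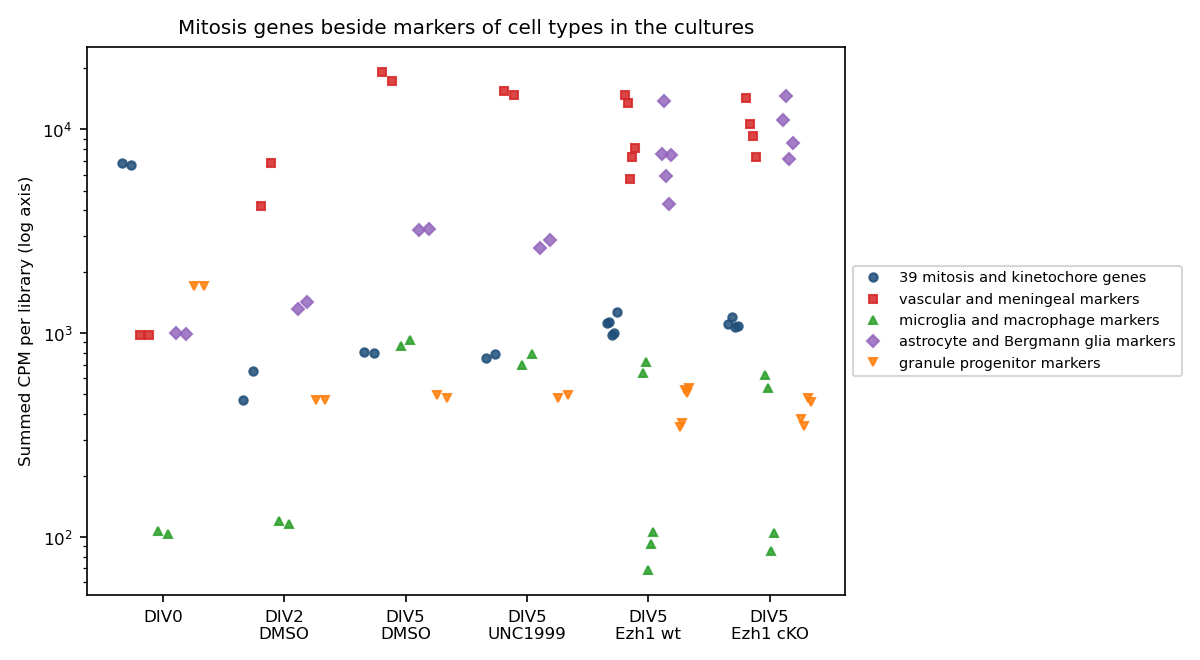
Summed CPM per library of the 39 genes and of marker lists of 4 cell types in the 6 groups of cultures, on a log axis. From DIV2 to DIV5 the 39 genes rise from 469 and 655 CPM to 808 and 803 CPM, while vascular and meningeal, microglia and astrocyte markers rise more. Granule progenitor markers hold 470 CPM in both DIV2 libraries and 480 and 496 CPM at DIV5. In the Ezh1 cultures the microglia markers form 2 separate levels.

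UNC1999 asks what blocking H3K27 methylation does at DIV5. Of the 39 genes none was called higher or lower than with DMSO, where 11.9% of all 15978 genes were called (6.36% higher and 5.53% lower). The log2 fold changes ran from -0.28 ± 0.18 for Kif18b (7.30 and 8.22 CPM to 6.58 and 6.29 CPM) to 0.29 ± 0.19 for Cdca8 (11 and 10.4 CPM to 12.7 and 13.3 CPM), with a median of -0.04 against 0.00 for all genes. Next to these extremes were Ccnb1 (-0.18 ± 0.17), Pttg1 (-0.18 ± 0.16), Birc5 (0.09 ± 0.18) and Ttk (0.09 ± 0.15). Mki67 held 98.1 and 106 CPM with DMSO and 91.1 and 94.1 CPM with UNC1999 (-0.14 ± 0.16, adjusted p = 0.65), Top2a 72.3 and 70.9 CPM and 72.5 and 74.2 CPM (0.03 ± 0.14). Of the recurring genes, Cdk1, Plk1, Bub1, Ndc80, Kif11, Tpx2, Incenp and Mad2l1, lay between -0.13 and 0.07. Groups did not overlap for 15 of the 39, 3 higher and 12 lower, where 27.6% and 27.9% of all genes were higher and lower without overlap. Beside this, 7 of 11 astrocyte markers were lower and 7 of 8 granule neuron markers were higher with UNC1999. With 2 libraries a group, a change of the size of these SEs was not detectable.

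Between the Ezh1 cKO and wt cultures none of the 39 genes was called by the same test, nor was any gene of 14461, so the background is 0.00% (169 genes had an unadjusted p under 0.05, and DESeq2 called 1 gene, none of the 39). The largest differences were Cenpa, at 16.8 to 30.0 CPM in wt and 15.7 to 22.2 CPM in cKO (-0.30 ± 0.21), Birc5, at 15.3 to 24.5 CPM and 15 to 16.1 CPM (-0.29 ± 0.16), and Ube2c (-0.24 ± 0.20) on the lower side. On the higher side they were Mki67, at 70.9, 107, 70.0, 62.3 and 91.1 CPM in wt and 103, 114, 86.3 and 85 CPM in cKO (0.27 ± 0.18), Kif11 (0.24 ± 0.13) and Esco2 (0.22 ± 0.24). Top2a (0.17 ± 0.14), Ccnb1 (0.15 ± 0.38), Cdk1 (-0.13 ± 0.15), Plk1 (-0.14 ± 0.14), Bub1 (0.03 ± 0.11), Ndc80 (0.00 ± 0.15), Tpx2 (-0.00 ± 0.12), Incenp (-0.03 ± 0.08) and Mad2l1 (-0.03 ± 0.12) lay closer to 0. Only 1 of the 39 had groups without overlap, Kif2c, at 16.5 to 21.4 CPM in wt and 15 to 16.0 CPM in cKO.

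Within both genotypes some genes followed the replicate number more than the genotype. Ccnb1 held 38.7 and 36.6 CPM in wt replicates 1 and 2 and 15.7, 20.2 and 24.5 CPM in replicates 3 to 5, and in cKO 38.6 and 45 CPM in replicates 1 and 2 and 17.5 and 20.8 CPM in replicates 3 and 4. Kif20a held 34.0 and 33.8 CPM against 21.1, 23.6 and 27.1 CPM in wt and 33.7 and 33.0 CPM against 19.4 and 18.5 CPM in cKO. Top2a ran the other way, with 72.5 and 82.5 CPM against 91.5, 93.1 and 123 CPM in wt and 87.5 and 102 CPM against 114 and 112 CPM in cKO. These are the replicates that differ in microglial markers, and the part of other cell types in this was not tested. The replicate number was also used as a block, without wt replicate 5, which has no cKO library of that number. No gene of the 39 was called in that fit either. Mki67 was then 0.32 ± 0.09 (adjusted p = 0.49), Kif11 0.33 ± 0.10 (0.49) and Top2a 0.27 ± 0.07 (0.49). In all 4 same-numbered pairs cKO was higher for 7 of the 39 genes (17.9%, against 12% of all genes tested), namely Cenpf, Esco2, Kif11, Kif18b, Mki67, Prc1 and Top2a. It was lower in all 4 pairs for Birc5, Cenpa, Kif20a and Kif2c (10.3% of the 39, against 8.15% of all genes). This count was added after the values had been seen, takes its pairs from the data and is a description with no test. All 5 wt libraries were above both DIV5 DMSO libraries of the first set for 30 of the 39 genes, a difference between experiments that were prepared separately and was not tested.

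Some of these genes share exon sequence with a neighbour on the other strand in GENCODE M21, and whether counting used strand is not given in the sources used here. They are Ccna2 with Exosc9, Cdc20 with Elovl1, Plk1 with Gm44985, Kif20a with Cdc23 (1271 of 4338 exon bases), Ube2c with Tnnc2, Prc1 with Rccd1, Cdca8 with 9930104L06Rik and Nusap1 with Oip5. Their residual levels at P21 and in culture may hold reads of the neighbour, which was not tested.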

How the data were processed

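The deposited values are estimated counts per gene, which need not be whole, in 1 table of the series. The authors made them with Salmon 0.8.2, and mm10 is named as the genome build, per the submitters' processing notes. The annotation, the summing over transcripts and any filter are not given in the sources used here. Per the labels' protocols, libraries were poly(A)-selected and sequenced as single-end reads. Counts were used unrounded, with their library totals, for CPM and for edgeR, and were rounded to whole numbers only for DESeq2. Of 24100 gene IDs 55 matched no symbol (0.0361% of counts), and 1041 genes, 1012 of them on the X and 28 on the Y chromosome, were blank in the Ezh1 libraries. No column belonged to other samples (0).

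Genes passed a filter with a minimum count of 10 and a minimum total of 15. The 10 comparisons were fitted over all genes with edgeR 4.0.16 in R 4.3.3 (quasi-likelihood test, TMM scaling, Benjamini-Hochberg adjustment, call at an adjusted p under 0.05), without a replicate block. The fits were tested on simulated data. Alternatives were scaling by library size, DESeq2 1.42.0, no filter, only the groups compared, a replicate block over the numbers both groups hold and leaving out each library.

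Same-numbered Ezh1 wt and cKO libraries deviated together (4 pairs, correlations of 0.841 to 0.919 over genes). Their numbers were taken to pair them, from the data and not from the labels. The cKO replicate 1 correlated most with a wt library of another number. Replicates 1 and 2 stood apart from the others in both genotypes, so these correlations cannot separate pairing by number from that split. Deposited replicates differed beyond sampling noise, so none was merged. The chi-square per degree of freedom was 1.45 for the DIV0 pair and 4.23 to 215 for all other pairs. The DIV0 pair was thus the closest to sampling noise, and whether it is a technical repeat is not given. The members and gene lists were chosen with earlier results of these data known. Named in each comparison are 12 recurring genes (Mki67, Top2a, Ccnb1, Cdk1, Plk1, Bub1, Ndc80, Birc5, Kif11, Tpx2, Incenp and Mad2l1), the 3 largest and 3 smallest changes, and exceptions to the majority. Of the other pathway lists, the 2 genes of smallest p and the exceptions are named for the step from P7 to P12, and in part for DIV2 to DIV5. Promoters came from RefSeq on GRCm38.p6, and exons and transcript lengths from GENCODE M21.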

Additional observations from a re-analysis of the deposited data

Results flagged for a closer look

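Within groups of 4 or 5 libraries, 15 of 240 sets of values (6.25%), those of the 39 genes and of their summed level in 6 groups, had 1 library far from the others by Dixon's criterion at 95%, where chance flags about 1 group in 20. In Neurod1 TRAP at P7, replicate 4 was high for Ccnb2 (65.0 CPM, next 53.4), Spc24 (40.3, next 34.7), Cenpa (93.8, next 77.4), Birc5 (70.0, next 56.5), Cdca8 (83.3, next 75.1) and Pttg1 (50.1, next 41.6), and replicate 2 was low for Tpx2 (105 CPM, next 135). At P12 replicate 3 was high for Nuf2 (12.1 CPM, next 9.19). At P21 replicate 3 was high for Aurkb (0.228 CPM, next 0.109) and low for Ttk (0.143 CPM, next 0.349), and replicate 2 held all counts of Ndc80 (0.123 CPM, the others 0). Math1 TRAP replicate 3 was low for Kif18b (89.7 CPM, next 98.6). Ezh1 wt replicate 5 was high for Kif18b (18.3 CPM, next 12.2) and Kif2c (21.4 CPM, next 17.5), and Ezh1 cKO replicate 1 was low for Mad2l1 (19.1 CPM, next 22.0).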

How the results depend on the processing

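The counts of the 39 genes called in the 2 age steps, from P7 to P21, between the TRAP lines, from DIV0 to DIV2, with UNC1999 and in Ezh1 cKO stayed within 1.5 times under every alternative run. TRAP against input gave 3 higher and 16 lower with library size scaling, and 4 to 16 higher and 3 to 9 lower when leaving out 1 library. DIV5 against DIV2 gave 31 higher and 1 lower with library size scaling, 1 lower with only the groups compared, and 10 to 36 higher and 1 to 3 lower when leaving out 1 library. DIV5 against DIV0 had 1 gene higher, Pttg1, with library size scaling, without the filter or with the replicate block, and 0 to 1 when leaving out 1 library. The cause of these shifts was not tested. The summed level on TMM-scaled sizes was 1908, 426.8 and 74.81 CPM in the P7, P12 and P21 inputs, 51.67 CPM in Neurod1 TRAP at P21, 6978 CPM at DIV0, 771.1 CPM at DIV5 with DMSO and 739 CPM with UNC1999.

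Outside the Ezh1 cultures same-numbered libraries did not deviate together in every pair (correlations of -0.431 to 0.378), so they were not taken as pairs. Whether they share a preparation is not given in the sources used here, and these correlations cannot exclude it. With the replicate block DIV5 against DIV2 gave 19 higher and 1 lower, and with crossed numbers, an alternative chosen after seeing the data, 29 higher and 2 lower. The block changed no call in Ezh1 cKO. Over all genes UNC1999 gave 1016 higher and 883 lower, 493 and 453 by DESeq2, and 1389 and 1646 with the block.

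Changes near 0 that were not called turned sign. In TRAP against input, library size scaling gave Birc5 -0.36, Incenp -0.22, Ndc80 -0.11, Top2a -0.25 and Tpx2 -0.13, DESeq2 gave Birc5 -0.12 and Top2a -0.10, and no filter gave Plk1 0.02. From DIV2 to DIV5 Birc5 was 0.10 with library size scaling, 0.02 with only the groups compared, 0.02 with the replicate block and 0.03 with crossed numbers. DESeq2 gave Cdk1 -0.01 with UNC1999. In Ezh1 cKO the replicate block gave Mad2l1 0.02, Ndc80 -0.02 and Tpx2 0.07, and Tpx2 was 0.00 with library size scaling and without the filter and 0.01 by DESeq2. Leaving out 1 library, TRAP against input ran from -0.35 to 0.41 for Birc5, -0.33 to 0.06 for Ccnb1, -0.43 to 0.03 for Kif11, -0.34 to 0.23 for Plk1 and -0.17 to 0.28 for Top2a. From DIV2 to DIV5 it ran from -0.28 to 0.32 for Birc5 and -0.01 to 0.92 for Bub1. With UNC1999 it ran from -0.15 to 0.27 for Birc5, -0.12 to 0.12 for Cdk1, -0.15 to 0.05 for Incenp, -0.14 to 0.02 for Kif11, -0.12 to 0.04 for Mad2l1 and -0.09 to 0.25 for Ttk. In Ezh1 cKO it ran from -0.05 to 0.09 for Bub1, -0.08 to 0.35 for Ccnb1, -0.05 to 0.00 for Incenp, -0.08 to 0.05 for Mad2l1, -0.05 to 0.11 for Ndc80 and -0.07 to 0.07 for Tpx2.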
